A study of Mus musculus with 27 samples.

Results

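The 10 genes described here encode the machinery by which mouse cells show peptides at their surface, and they were listed by name from the 37991 gene identifiers in the files, with earlier results of these data known. B2m, H2-K1, H2-D1, Tap1 and Tapbp belong to the class I pathway, and Cd74, H2-Aa, H2-Ab1, H2-Eb1 and Ciita to the class II pathway of the major histocompatibility complex (MHC). RNA was sequenced from cells of C57BL/6J mice that carry cyan fluorescent protein (CFP) under the Col3.6 fragment of a collagen promoter. The cells were digested from the calvaria (skull vault) of neonates 5 to 9 days old, grown for 4 days, sorted for CFP and returned to culture with ascorbic acid and beta-glycerol phosphate, which support mineralisation. Every group shared this strain, transgene and treatment, and the groups differed only in the day of differentiation, which was 2, 4, 6, 8, 10, 12, 14, 16 or 18.

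Each day was represented by 3 files that the labels number as replicates, but the 3 share 1 barcode and differ in the sequencing lane. Over the genes with whole counts they differed by no more than counting noise (chi-square per degree of freedom 0.999 to 1.02 within the 9 days), so they were summed and counted as 1 library. The summed libraries held 22470195 to 62009157 counts with a median of 43146793, and day 10 was the shallowest. No day had a second library, so the p-values below measure how far the 9 libraries scattered around a fitted curve, and a day and the culture dish it came from cannot be told apart. Levels are given as TPM, a unit of relative transcript abundance that allows for transcript length, after scaling each file by its upper quartile.

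In the class I pathway, peptides cut in the cytosol are carried into the endoplasmic reticulum and loaded on a heavy chain that is paired with beta-2-microglobulin, and nearly every nucleated cell shows the product. In the class II pathway, an alpha and a beta chain travel with the invariant chain to endosomes and are loaded there with peptides of material the cell has taken up. Class II genes are normally read in dendritic cells, B cells and macrophages, under the coactivator Ciita, while class I genes are read widely and respond to interferons.

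In TPM, messages of B2m, H2-K1, H2-D1 and Tapbp in the class I pathway were highest on day 12, and that of Tap1 on day 8. In CPM, counts scaled to a common library size, days 10 and 12 were closer, with H2-K1 at 202.4 and 199.8. The 95% Wilson intervals of those days, which cover counting error only, overlapped for H2-K1, H2-D1 and Tapbp but not for B2m (1297 and 1323). In the class II pathway no message exceeded 15.6 TPM, and Cd74 and H2-Aa went from at most 0.799 and 0.0938 TPM up to day 8 to 8.48 and 2.05 TPM on day 10. B2m was by far the most abundant of the 10 genes, and its range over the days did not overlap that of H2-K1, the next in order. H2-K1 exceeded H2-D1 on 8 of 9 days, H2-D1 exceeded Tapbp on 9 of 9 and Tapbp exceeded Tap1 on 9 of 9, although the ranges of these neighbours overlapped. Tap1 exceeded Cd74 on 6 days and Cd74 exceeded H2-Ab1 on 6. The order of H2-Ab1, H2-Aa and H2-Eb1 changed from day to day, with H2-Ab1 above H2-Aa on 4 days and H2-Aa above H2-Eb1 on 5. Ciita was below H2-Eb1 on 9 of 9 days and their ranges did not overlap.

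A straight line in day was fitted to the counts of all genes by edgeR's quasi-likelihood test, and its slope was expressed as the log2 change from day 2 to day 18. Of the 10 members, 8 rose and 0 fell at a Benjamini-Hochberg adjusted p under 0.05, over a background in which 28.3% of the 15659 genes tested rose and 26.1% fell. The median fitted log2 change was 2.06 over the 5 class I members and 2.84 over the 5 class II members, beside 0.05 over all genes tested. Tap1 and Ciita were the members that did not pass. Without the library of day 2, 4 members rose (Tapbp, Cd74, H2-Aa and H2-Ab1) and 1, Tap1, fell. Without that of day 4, 5 rose (these 4 and B2m) and 0 fell.

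**Figure D1:**
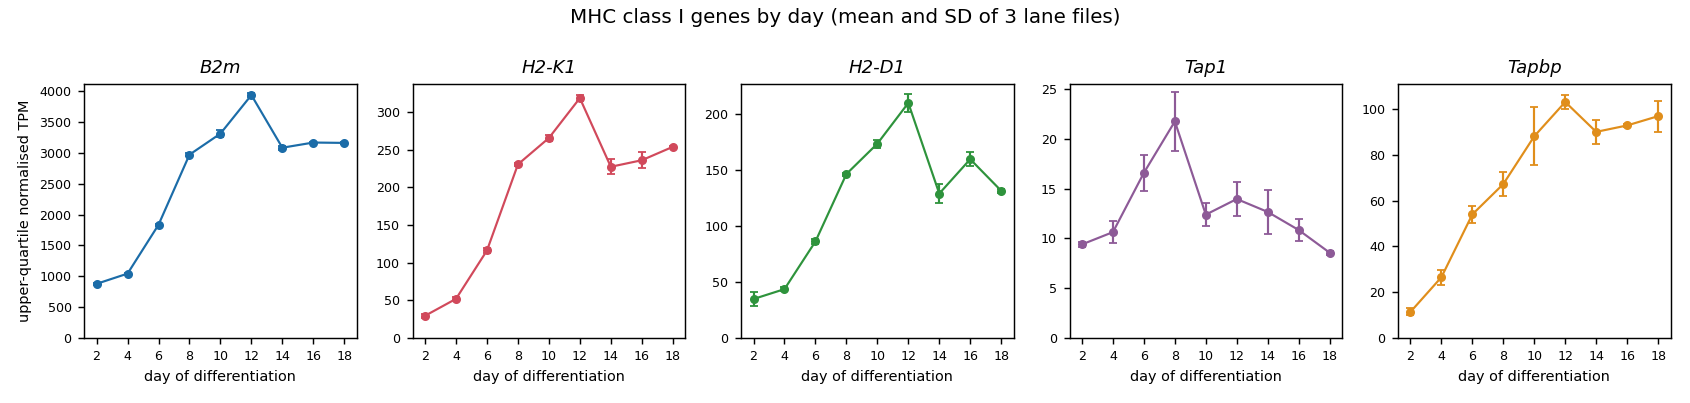
Upper-quartile normalised TPM (vertical axes, linear and starting at 0) of the 5 class I members against day of differentiation. Points are means and bars standard deviations of the 3 lane files of 1 library, so the bars show sequencing error only. B2m, H2-K1, H2-D1 and Tapbp are highest on day 12, and Tap1 is highest on day 8.

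B2m (chr2:121973422-121978819 of NCBIM37, plus strand) encodes beta-2-microglobulin, the small invariant subunit that every classical class I molecule needs to reach the cell surface. Across the 9 days from 2 to 18 it stood at 874, 1040, 1833, 2972, 3314, 3940, 3085, 3169 and 3163 TPM. The level thus rose 4.51-fold from day 2 to day 12 and stayed near 0.803 of its peak on day 18. The fitted log2 change was 1.76 ± 0.49 (SE, 9 libraries, edgeR adjusted p = 0.011), and it was 1.31 (edgeR adjusted p = 0.0663) without day 2.

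H2-K1 (chr17:34132962-34137278, minus strand) and H2-D1 (chr17:35399675-35404444, plus strand) encode the classical class I heavy chains, which hold the peptide. H2-K1 stood at 29.1, 51.6, 116, 231, 266, 319, 227, 236 and 254 TPM on days 2 to 18. H2-D1 stood at 34.6, 43.5, 86.2, 147, 174, 210.3, 129, 159.9 and 132 TPM on the same days. In TPM both were lowest on day 2 and highest on day 12, but H2-K1 climbed further, 11-fold against 6.07-fold. The ratio of H2-K1 to H2-D1 moved from 0.841 on day 2 to 1.93 on day 18. By the straight line the log2 change was 2.48 ± 0.83 for H2-K1 (edgeR adjusted p = 0.0274). It was 2.06 ± 0.67 for H2-D1 (edgeR adjusted p = 0.0248). H2-K1 missed the threshold without day 2 (1.55, edgeR adjusted p = 0.129), day 4 (1.99, 0.0947) or day 6 (2.52, 0.0502), and H2-D1 without day 2 (1.38, 0.133) or day 4 (1.65, 0.0862).

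Counts of the heavy chains carry the uncertainty of reads that fit several paralogs. RSEM divides such reads among genes in proportion to their estimated abundance, which leaves counts that are not whole numbers. The count of H2-D1 was not whole in 27 of 27 files and that of H2-K1 in 13. Tapbp was not whole in 10 files and Tap1 in 2, while the other 6 members were whole in every file. Genes of the other lists were divided as well. Among them, the count was not whole in 27 files for Psmb9 and Tapbpl, 26 for H2-T22 and H2-T23 and 22 for H2-DMb1. Of the 2331 stretches of 50 bases in the annotated coding transcripts of H2-D1, 12.8% also occurred in another gene, most often H2-Q2, H2-Q7, H2-Q6 and H2-K1. The share was 7.29% of 1892 stretches for H2-K1, 1.13% for Tapbp and 0.834% for Tap1, and none of the stretches of the other 6 was shared. Only the coding strands were compared, so an overlap on opposite strands, as between H2-Ab1 and H2-Aa, could not be counted. Aligned over 1080 bases, the coding sequences of H2-K1 (1110 bases) and H2-D1 (1098 bases) were 91.5% identical. Their longest identical run, 91 bases long and spanning positions 738 to 828 of the H2-K1 and 747 to 837 of the H2-D1 coding sequence, is shown because a read that falls inside it cannot be given to either gene with certainty.
H2-K1 and H2-D1, coding strand: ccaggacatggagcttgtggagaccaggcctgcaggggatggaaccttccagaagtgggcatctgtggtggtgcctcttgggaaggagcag

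H2-K1, H2-D1 and the 26 other class I heavy chain genes listed were also summed, so that reads divided among them no longer mattered. The fitted log2 change of the sum was 1.77 (edgeR adjusted p = 0.0379). H2-K1 and H2-D1 also share stretches of 50 bases with genes outside the sum, such as Gm7030 and Gm11127. Reads that fit those genes as well remained uncertain. Within that sum, H2-K1 supplied 28.4% of the TPM on day 2 and 56.6% on day 18. The share of H2-D1 lay between 29.3% and 34.5%, and the 26 other genes went from 37.9% to 14.1%. The level of B2m was 6.35 to 8.52 times the summed heavy chains on all 9 days, so subunit and heavy chains kept a narrow ratio while both climbed.

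Tap1 (chr17:34324498-34334170, plus strand) encodes a subunit of the transporter that carries peptides into the endoplasmic reticulum, and Tapbp (chr17:34052844-34066235, plus strand) encodes tapasin, which bridges that transporter to the heavy chain. Tapbp stood at 11.3, 26.5, 54.0, 67.3, 88.2, 103, 90.1, 92.9 and 96.99 TPM on days 2 to 18. Tap1 stood at 9.38, 10.6, 16.6, 21.8, 12.4, 13.9, 12.7, 10.8 and 8.55 TPM. Tapbp therefore followed the heavy chains and held its level, whereas Tap1 was highest on day 8 and lowest on day 18. For Tapbp the line gave a log2 change of 2.21 ± 0.60 (edgeR adjusted p = 0.0096), falling to 1.43 (0.0278) without day 2. That of Tap1 was -0.52 ± 0.49 (edgeR adjusted p = 0.391), and without day 2 it was -1.13 (edgeR adjusted p = 0.0447).

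In TPM 4 of the 5 class I genes were highest on day 12. A quadratic curve in day was therefore fitted as well, a choice made after the levels had been seen. Its curvature is the fitted log2 level of day 10 minus the mean of those of days 2 and 18, and a positive value means a middle that lies above the ends. All 5 class I members had a positive curvature past the threshold, over a background in which 7.82% of 16256 genes were called positive and 4.02% negative. The curvature was 1.05 ± 0.17 for B2m (edgeR adjusted p = 0.00387) and 1.78 ± 0.22 for H2-K1 (0.00109). It was 1.43 ± 0.21 for H2-D1 (edgeR adjusted p = 0.00242), 1.40 ± 0.17 for Tapbp (0.000954) and 1.05 ± 0.23 for Tap1 (0.0149). Tap1 alone among the 5 missed the threshold when a day was left out (0.82, edgeR adjusted p = 0.11, without day 2).

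The proximal promoters of B2m, H2-K1 and H2-D1 are shown because the messages of the complex moved together over the 9 days, with Pearson's r of 0.994 between B2m and H2-K1, 0.991 between B2m and H2-D1 and 0.986 between the heavy chains (log2 scale, across 9 days that share the same libraries, given as a description). Each is the 250 bases before the gene start that RefSeq lists on GRCm38.p6, written 5′ to 3′ on the gene's strand. Capitals mark an interferon-response motif, searched on both strands as GAANNGAAA or as the longer GAAANNGAAA, and the Y box CTGATTGG, which contains the CCAAT box in its reverse form. The longer pattern does not contain the shorter, so a window can match either alone. The B2m window is chr2:122147437-122147686 (plus strand), the H2-K1 window, from the second of its listed starts, is chr17:34000334-34000583 (minus strand), and the H2-D1 window is chr17:35262844-35263093 (plus strand).
B2m: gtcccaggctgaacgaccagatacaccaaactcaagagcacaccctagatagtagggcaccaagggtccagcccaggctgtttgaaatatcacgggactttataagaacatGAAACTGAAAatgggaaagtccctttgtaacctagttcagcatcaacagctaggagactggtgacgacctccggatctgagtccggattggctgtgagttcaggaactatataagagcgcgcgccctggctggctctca
H2-K1: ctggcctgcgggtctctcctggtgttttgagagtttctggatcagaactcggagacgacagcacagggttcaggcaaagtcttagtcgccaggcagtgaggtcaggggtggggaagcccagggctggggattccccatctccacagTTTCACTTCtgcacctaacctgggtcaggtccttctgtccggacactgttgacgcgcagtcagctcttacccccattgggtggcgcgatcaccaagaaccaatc
H2-D1: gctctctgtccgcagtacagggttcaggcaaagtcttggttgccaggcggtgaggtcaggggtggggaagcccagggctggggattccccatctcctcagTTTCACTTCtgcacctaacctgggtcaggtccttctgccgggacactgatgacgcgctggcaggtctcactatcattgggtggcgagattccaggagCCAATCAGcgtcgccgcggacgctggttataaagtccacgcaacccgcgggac

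The longer pattern GAAANNGAAA lay at positions -139 to -130 of B2m, counted back from the listed start, and occurs in 2.98% of the 32851 promoters in the RefSeq table. The shorter GAANNGAAA lay on the opposite strand of H2-K1 at -104 to -96 and of H2-D1 at -150 to -142, and occurs in 6.31% of the promoters. H2-D1 also held CTGATTGG on the opposite strand at -53 to -46, as 3.83% of promoters do. The window of Tapbp, not shown, held no interferon-response motif and no Y box, although Tapbp moved closely with H2-K1 (r 0.982) and B2m (0.964). That of Tap1, also not shown, held CTGATTGG on the opposite strand at -222 to -215 and no interferon-response motif. These matches describe the letters of the windows and say nothing of binding.

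**Figure D2:**
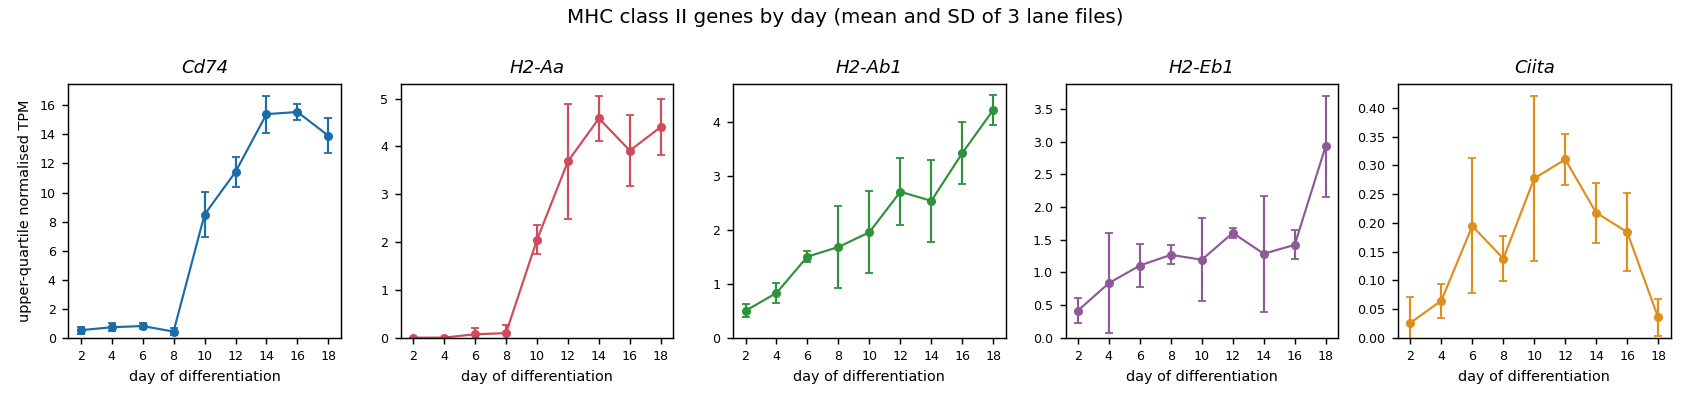
Upper-quartile normalised TPM (vertical axes, linear and starting at 0, each with its own scale) of the 5 class II members against day of differentiation. Points are means and bars standard deviations of the 3 lane files of 1 library. Cd74 and H2-Aa step up between days 8 and 10, H2-Ab1 and H2-Eb1 are highest on day 18, and Ciita stays under 0.4 TPM.

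In the class II pathway the steepest change fell between days 8 and 10 and was carried by Cd74 and H2-Aa. Cd74 encodes the invariant chain, which fills the groove of new class II molecules and leads them to endosomes. It stood at 0.512, 0.716, 0.799 and 0.418 TPM on days 2 to 8, then at 8.48, 11.4, 15.4, 15.6 and 13.9 TPM on days 10 to 18. The days up to 8 and those from 10 on did not overlap, and the step from day 8 to day 10 was 20.3-fold. In CPM, counts scaled to a common library size, it went from 0.269 (8 counts, 95% Wilson interval 0.136 to 0.530) to 5.52 (124 counts, 4.63 to 6.58), intervals that cover counting error only. Its fitted log2 change was 5.91 ± 1.08 (edgeR adjusted p = 0.00109), and it stayed past the threshold when any of the 9 days was left out.

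H2-Aa (chr17:34406276-34424772, minus strand) encodes the alpha chain of the I-A class II molecule. It had 0 counts on days 2 and 4 and 1 count each on days 6 and 8, followed by 19, 105, 100, 97 and 83 counts on days 10 to 18. In TPM the later days stood at 2.05, 3.69, 4.58, 3.91 and 4.41, so H2-Aa switched between the same days as Cd74. With 3 counts in the library taken as the floor, the level of day 10 was at least 11.9-fold and that of day 14 at least 31.2-fold higher than on day 2. Fitted by the line, the log2 change was 8.34 ± 1.66 (edgeR adjusted p = 0.00181), a size that depends on the libraries at 0 and is no bound.

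H2-Ab1 (chr17:34400154-34406363, plus strand) encodes the beta chain that pairs with H2-Aa, and its course was different. It was already present on day 2 and stood at 0.499, 0.830, 1.51, 1.68, 1.96, 2.71, 2.54, 3.43 and 4.23 TPM on days 2 to 18. No step between neighbouring days exceeded the counting intervals, yet the whole course was 8.49-fold. The counts behind it were 11, 19, 41, 18, 26, 88, 62, 98 and 106. The fitted log2 change was 2.84 ± 0.44 (edgeR adjusted p = 0.000442). The ends of H2-Ab1 and H2-Aa overlap by 88 bases on opposite strands, but both genes had whole counts in all files, so no read was divided between them.

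H2-Eb1 (chr17:34442828-34453144, plus strand) encodes the beta chain of the I-E molecule, whose alpha chain gene H2-Ea is a known null allele in C57BL/6 mice. H2-Ea was at 0 counts in all 9 libraries. H2-Eb1 itself stood at 0.415, 0.835, 1.11, 1.27, 1.19, 1.60, 1.29, 1.42 and 2.94 TPM. The counts were few (9, 21, 23, 22, 12, 50, 24, 39 and 44), and the TPM of day 18 stood further above the other days than the counts did. The fitted log2 change was 1.47 ± 0.52 (edgeR adjusted p = 0.035). This call was lost without day 2, 4, 6, 16 or 18 (edgeR adjusted p 0.143, 0.0572, 0.0541, 0.0571 and 0.105), and also without the files numbered 2 (0.0604) or 3 (0.187).

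Ciita (chr16:10480237-10527657, plus strand) encodes the coactivator that class II promoters depend on. It was near the limit of detection, with 3, 6, 8, 14, 8, 42, 17, 28 and 4 counts on days 2 to 18, or 0.0257 to 0.310 TPM. The highest value fell on day 12, and on day 18 the 95% Wilson interval of its CPM was 0.0350 to 0.231. The days on which Cd74 and H2-Aa were high therefore included the day with only 4 counts of Ciita. The fitted log2 change was 1.82 ± 1.17 (edgeR adjusted p = 0.213), and without day 18 it was 3.06 (edgeR adjusted p = 0.0177).

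The curvature set the class II members apart from each other. Of the 5, H2-Aa passed with 5.33 ± 0.88 (edgeR adjusted p = 0.00462). Its level was nevertheless lower on day 10 (2.05 TPM) than on day 18 (4.41), and its counts up to day 8 were 0 or 1. Cd74 had 1.41 (edgeR adjusted p = 0.262, and 1.75 with 0.044 without day 8), and Ciita had 2.32 (0.0665, and 2.68 with 0.0401 without day 16). H2-Ab1 had 0.39 (edgeR adjusted p = 0.555) and H2-Eb1 had 0.40 (0.635, with the sign turned to -0.09 without day 2). A natural spline in day, which asks only whether a gene changed at all, called 9 of the 10 members, beside 57.5% of all genes, and the member it did not call was H2-Eb1.

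**Figure D3:**
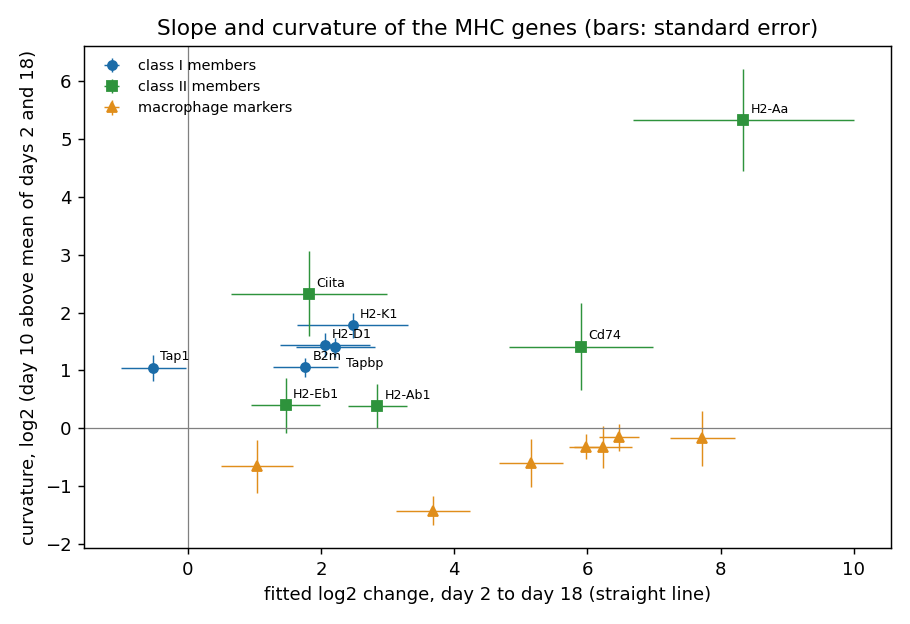
Fitted log2 change from day 2 to day 18 by a straight line (horizontal axis) against curvature in log2 units (vertical axis), with standard errors as bars, for the class I members (circles), class II members (squares) and the 7 macrophage markers (triangles). The 5 class I members lie between 1.05 and 1.78 in curvature. The macrophage markers all lie below 0, but only Csf1r passed the threshold (-1.42, edgeR adjusted p = 0.0065) and the other 6 did not.

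The promoters of H2-Aa and H2-Eb1 are shown because class II genes are known to be read through a shared upstream array, the X and Y boxes, to which Ciita is recruited. Capitals mark the X box core GCAAC, the adjoining cyclic AMP response core TGACG (which in H2-Aa runs on into its own reverse form) and the Y box CTGATTGG, searched on both strands. The H2-Aa window is chr17:34287824-34288073 (minus strand) and the H2-Eb1 window chr17:34305617-34305866 (plus strand), both 250 bases before the RefSeq start on GRCm38.p6.
H2-Aa: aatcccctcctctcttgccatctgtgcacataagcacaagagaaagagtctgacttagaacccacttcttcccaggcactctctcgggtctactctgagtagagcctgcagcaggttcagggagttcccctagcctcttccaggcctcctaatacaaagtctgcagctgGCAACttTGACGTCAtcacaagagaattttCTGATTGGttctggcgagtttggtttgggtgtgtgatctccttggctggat
H2-Eb1: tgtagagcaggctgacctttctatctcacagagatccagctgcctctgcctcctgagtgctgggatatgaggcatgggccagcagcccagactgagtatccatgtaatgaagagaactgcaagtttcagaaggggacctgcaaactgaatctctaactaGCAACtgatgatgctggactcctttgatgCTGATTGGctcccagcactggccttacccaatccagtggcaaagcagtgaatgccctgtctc

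The Y box lay at -51 to -44 of H2-Aa and -62 to -55 of H2-Eb1, and the X box core at -81 to -77 and -91 to -87, so the distance between the boxes was nearly the same in both. GCAAC occurs in 29.9% of all promoters and TGACG in 17.8%, and TGACG was not found in the H2-Eb1 window. H2-Aa and H2-Eb1 thus carry the same pair of boxes and had different courses, with Pearson's r of 0.729 over the 9 days, against 0.984 for Cd74 with H2-Aa and 0.932 for H2-Ab1 with H2-Eb1.

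The other class I heavy chains separated into courses of their own. Of 26 genes listed, 12 had enough counts to be tested, and H2-M3 (2.23, edgeR adjusted p = 0.0179) and H2-T23 (1.90, 0.0126) rose while H2-T24 (-0.78, 0.00659) fell. These 2 higher and 1 lower were smaller shares than the 28.3% and 26.1% of all genes tested. H2-T23 encodes Qa-1, a nonclassical class I molecule, and went from 4.89 TPM on day 2 to 28.3 on day 18. H2-T22 stood at 16.5 TPM on day 2, 36.9 on day 8 and 16.0 on day 18, and H2-Q4 at 0.697, 7.82 and 2.54 on those days. The curvature was positive past the threshold for 7 of the 12, beside 7.82% of all genes, among them H2-Q4, H2-Q6 and H2-Q7, close paralogs among which reads could be split, so that their single values are uncertain. Of the 26, 9 genes, H2-M1, H2-M10.3, H2-M10.4, H2-M10.5, H2-M10.6, H2-M11, H2-M2, H2-M9 and H2-T3, were at 0 in all libraries.

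Of the 6 partners that load peptide 2 rose and 1 fell, shares near the 28.3% and 26.1% of all genes. Erap1, an aminopeptidase that trims peptides in the endoplasmic reticulum, rose from 4.13 TPM on day 2 to 12.2 on day 18 (1.09 ± 0.34, edgeR adjusted p = 0.0189). Tapbpl, a relative of tapasin, rose by 0.76 ± 0.23 (edgeR adjusted p = 0.0186). The general chaperone Canx fell by 0.97 on the log2 scale (edgeR adjusted p = 0.000249), from 402 TPM to 265, and Calr and Pdia3 did not pass. Tap2, the partner subunit of Tap1, stood at 2.21 TPM on day 2, 6.94 on day 10 and 4.66 on day 18 (0.79, edgeR adjusted p = 0.1, with a curvature of 0.75 and edgeR adjusted p = 0.0452).

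The immunoproteasome, a form of the proteasome that favours class I peptides, moved early. Psmb9, whose count was not whole in 27 of 27 files, stood at 0.664, 23.9, 34.0 and 22.9 TPM on days 2, 8, 10 and 18. Psmb8 stood at 1.47, 25.0, 19.4 and 12.5 TPM on these days and Psmb10 at 4.58, 22.1, 17.1 and 18.5. Of the 5 genes, Psme1 rose by the straight line (0.77 ± 0.24, edgeR adjusted p = 0.0188), and Psmb8, Psmb9, Psmb10 and Psme1 had a positive curvature past the threshold (2.37, 2.83, 1.24 and 0.52; edgeR adjusted p 0.0143, 0.00707, 0.0122 and 0.0173). Over all genes 7.82% had such a curvature. The spline called 5 of 5, beside 57.5% of all genes. The summed level of the list peaked on day 8, that of the class I members on day 12.

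Among 13 regulators of class I genes and interferon signalling, Nlrc5 had an early peak. Nlrc5, the class I coactivator, stood at 0.313 TPM on day 2, 2.50 on day 8 and 0.669 on day 18. Its curvature was 1.91 ± 0.49 (edgeR adjusted p = 0.0309), while its straight line did not pass (-0.74, edgeR adjusted p = 0.555). Ifngr1, a chain of the interferon gamma receptor, had the opposite shape, with 41.2 TPM on day 2, 18.9 on day 8 and 42.0 on day 18 (curvature -0.80, edgeR adjusted p = 0.0152). By the straight line 3 of the 11 genes tested rose (Irf2, Irf8 and Nfkb1) and 1 fell (Jak2), no larger a share than the 28.3% and 26.1% of all genes. The messages of Ifng and Ifnb1, which encode interferons gamma and beta, had 1 count each over all days.

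Of 7 other class II genes 3 were tested, and over a background of 28.3% of all genes rising, H2-DMa and H2-DMb1 rose. They encode the chains of H2-M, which exchanges the invariant chain fragment for peptide, and were present from the start, at 4.36 and 2.05 TPM on day 2. H2-DMa stood at 8.40 TPM on day 8, 14.8 on day 10 and 13.5 on day 18 (log2 change 1.77 ± 0.41, edgeR adjusted p = 0.00423). H2-DMb1 stood at 4.94, 8.52 and 11.01 TPM on those days (2.14 ± 0.35, edgeR adjusted p = 0.00057). Cd74 was 0.0498 of H2-DMa on day 8 and 0.572 on day 10. H2-Ob, H2-Ea and H2-Eb2 were at 0.

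Of 6 genes that process the invariant chain and antigen, 5 rose (Ctss, Ctsl, Lgmn, Ifi30 and Marchf8), beside 28.3% of all genes. Ctss, the cathepsin that degrades the invariant chain in macrophages and dendritic cells, went from 0.805 TPM on day 2 to 43.6 on day 18 (6.01 ± 0.41, edgeR adjusted p = 1.1e-05). Ctsl went from 316 to 730.0 TPM (0.86 ± 0.12, edgeR adjusted p = 0.000297). Of 7 factors that bind the X and Y boxes, Rfxank (0.77, edgeR adjusted p = 0.0246) and Rfx5 (0.35, 0.0496) rose. The other 5 factors did not pass, and the share of factors that rose was near the 28.3% of all genes. The summed level of these factors stayed between 110.0 and 122 TPM on all days. Among the 3 costimulation genes Cd80 fell (-2.12 ± 0.35, edgeR adjusted p = 0.000641), and Cd86 was listed at 0 up to day 10.

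**Figure D4:**
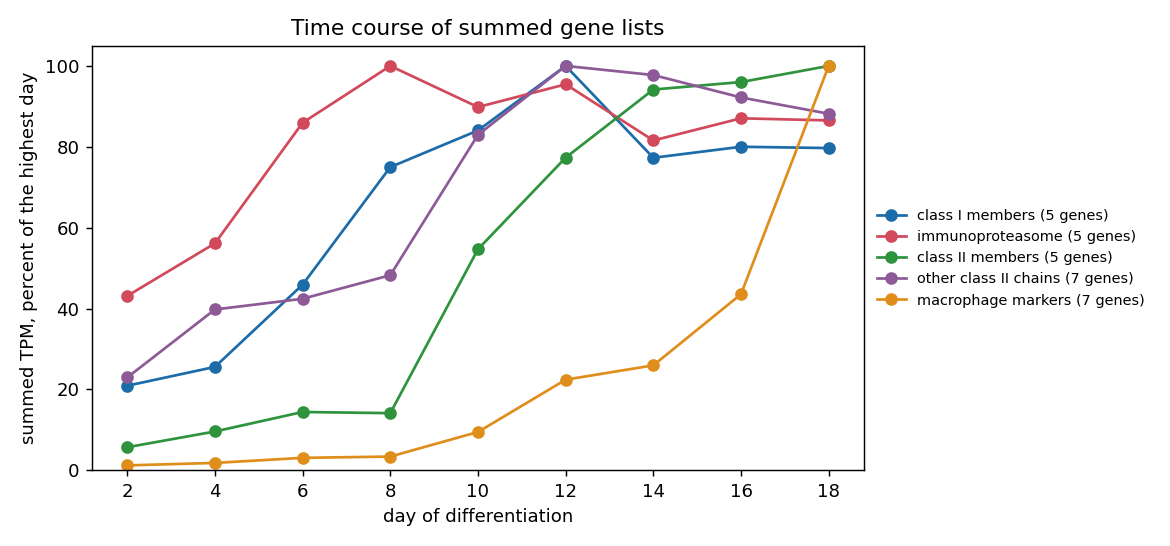
Summed TPM of 5 gene lists as a percent of each list's own highest day (vertical axis) against day of differentiation. The immunoproteasome reaches 100% on day 8, the class I members and other class II chains on day 12, and the class II members and macrophage markers on day 18. On day 10 the class II members stood at 54.7% and the macrophage markers at 9.5%.

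Markers of other cells moved with these results, and in bulk RNA fewer cells of a type and less RNA per cell cannot be told apart. Of 7 macrophage markers 6 rose, beside 28.3% of all genes, and Cd14 did not pass. Their summed level was 24.1 to 61.7 TPM on days 2 to 6 and 522 to 2014 on days 14 to 18, and no marker of the list was at 0 throughout. Lyz2 led the sum, at 19.9, 62.2, 172 and 1855 TPM on days 2, 8, 10 and 18. Macrophage markers went on climbing after day 12, whereas Cd74 stood at 11.4 TPM on day 12 and 13.9 on day 18. Cd74 was 0.382 of Csf1r on day 8, 4.84 times Csf1r on day 10 and 0.931 of it on day 18. Against Cd68 the ratio was 0.139, 0.649 and 0.122 on those days, and against Lyz2 0.00673, 0.0492 and 0.0075. From day 8 to day 10 the 7 macrophage markers rose between 1.5-fold (Cd14) and 4.33-fold (Cd68), with Csf1r at 1.6-fold. The part of macrophages in the class II levels was not tested.

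Dendritic cell markers summed to 1.46 to 2.07 TPM on days 2 to 6 and 1.81 to 2.24 on days 14 to 18, with Cd209a at 0. Of the 3 of 7 tested by the straight line, Zbtb46 rose (0.94, edgeR adjusted p = 0.0338) and Xcr1 fell (-3.24, 0.00127). Over all genes 28.3% rose and 26.1% fell. The integrin Itgax had 0 counts up to day 10 and 4 to 15 afterwards. B cell markers summed to at most 0.741 TPM, with the defining gene Ms4a1 at 0 in all libraries, and the 1 of 5 tested did not pass. Of the T and NK cell markers Cd3e, Cd3d, Cd3g and Ncr1 were at 0, and Cd4 rose (4.54 ± 1.54, edgeR adjusted p = 0.0292), with 1 count on day 2 and 183 on day 18. The part of these cells in the class II levels was not tested.

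The cells are labelled as osteoblasts, and Col1a1, a main collagen of bone, stood at 1526 to 4263 TPM. Of 8 osteoblast markers 6 rose, and Sp7 and Alpl did not pass. The sum of the list, most of it Col1a1, went from 1616 TPM on day 2 to 4683 on day 18. Sp7 stood at 32.3, 2.77 and 10.6 TPM on days 2, 8 and 18 (log2 change -1.23, edgeR adjusted p = 0.233). Alpl stood at 9.13, 0.467 and 17.6 TPM on days 2, 6 and 18 (2.22, edgeR adjusted p = 0.146). Adipocyte markers rose as well (5 of 5, 7.44 to 407 TPM between days 2 and 18), as did 2 of 2 mast cell and 2 of 3 osteoclast markers that could be tested. Of 3 endothelial markers tested 2 rose and Kdr fell (-3.27, edgeR adjusted p = 0.0249), and over all genes 28.3% rose and 26.1% fell. The summed level was at most 12.1 TPM for the endothelial and 1.76 for the mast cell list, in which Mcpt4 and Tpsb2 were at 0, and 215 for the osteoclast list, in which Calcr and Dcstamp were at 0. The part of these cells in the levels of the MHC genes was not tested.

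The genes whose courses were most like those of B2m and Cd74 were sought among 9815 genes with a mean of at least 5 TPM, by Pearson's r of log2 levels over the 9 days. For B2m they were Postn (0.992), which encodes the matrix protein periostin, Ebf2 (0.992), Tmem176a (0.991), Tmem26 (0.989), Cldn1 (0.987) and the imprinted gene Mest (0.987). Postn went from 83.1 TPM on day 2 to 1122 on day 8 and 1383 on day 18. For Cd74 they were Rnf130 (0.993), Ptgds (0.992), Usp6nl (0.99), 2410066E13Rik (0.99), Maob (0.99) and Ctps2 (0.986). Ptgds, a prostaglandin synthase, had the step of Cd74, at 0.101 TPM on day 8, 5.44 on day 10 and 30.2 on day 18.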

How the data were processed

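RNA of cultured mouse calvarial cells was sequenced on 9 days. Per the labels, cDNA was amplified (NuGEN Ovation) before Illumina TruSeq libraries were made, and the submitters' processing notes name Bowtie 0.12.9, RSEM 1.2.8 and NCBIM37. RSEM's expected counts for each gene, estimated counts that need not be whole, were deposited by the authors with no scaling. As deposited, TPM are length-adjusted abundances summed over isoforms, so TPM and counts of a gene can move apart. The FPKM values deposited by the authors served as an alternative for mean levels only.

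Expected counts of the 3 lane files of a day were summed and rounded. TPM were divided by the 75th percentile of values above 0 and multiplied by the mean percentile. Counts were fitted by edgeR 4.0.16 in R 4.3.3 (quasi-likelihood test after filterByExpr at a minimum of 10 counts, scaled by upper quartiles, Benjamini-Hochberg adjustment over all genes tested), with a straight line, a quadratic curve or a natural spline (3 degrees of freedom) in day. DESeq2 1.42.0, limma 3.58.1, TMM factors, other filters, other pseudocounts, summed paralogs and left-out days or files were alternatives. Only the straight-line fit was tested on simulated counts, with a scatter between libraries (dispersion) set below the 0.0581 estimated here. The quadratic and spline fits were not tested in this way. Amplified reads are not independent molecules, so intervals cover counting error only. A count was called whole within 0.005.

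The members and lists were chosen with earlier results of these data known. The rule named all 10 members, up to 6 genes of each list by mean TPM, listed genes at 0, and the 6 genes most like B2m and like Cd74. Other genes of a list were named where they passed a test, after their values were seen. Symbols and positions came from the GENCODE annotation of NCBIM37 (37205 of 37991 identifiers matched). Of the 2 identifiers of Ciita the one with more counts was kept, and the other had 6 counts in all files. Psmb9 also had 2 identifiers and was handled in the same way. Promoters came from RefSeq on GRCm38.p6, a different build from the files. H2-Ab1 and Ciita were not matched there. The replicate numbers did not pair the files (mean correlation of deviations -0.00136 for the same number and 0.000684 for different numbers).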

Additional observations from a re-analysis of the deposited data

How the results depend on the processing

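The straight line over all genes called 8510 genes, and every alternative stayed within 1.5 times that count. Of 244 recomputed changes of single members, 224 kept direction and side of the threshold, 16 lost the call, 3 gained it and 1 reversed. The count of 8 members called was 5 without day 2 (4 higher and Tap1 lower) and 5 without day 4 (all higher), and 7 to 8 when the files of 1 number were left out. Tap1 reversed to 0.0896 under the spline, whose curve need not follow the line. With all 27 files as samples and the replicate number as a block, 11413 genes and 8 members were called (11534 and 8 without the block). The numbers do not pair the files, and treating lane files as samples ignores that they share a library. The count of curved genes, 1924, moved to 1008 without day 10, 1265 without day 12 and 872 without day 18. Among the curvatures of members, H2-Eb1 reversed to -0.0926 without day 2, and the count of 6 members called ranged from 5 to 7. The causes were not tested. The curvature test was added after seeing the data. On deposited FPKM, which are on another scale, the means of all 10 members were lower. Depth limits Ciita (130 counts in all), H2-Eb1 (244) and H2-Aa (406) most.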

Other observations

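Cd80, a ligand that costimulates T cells, had a step between the same days as Cd74 but downward. It stood at 21.8, 27.7, 27.8 and 23.6 TPM on days 2 to 8 and at 10.8, 10.3, 7.34, 8.24 and 9.13 TPM on days 10 to 18, with no overlap between the earlier and the later days. This split was noticed in these values and was not tested on other libraries. Cd40, the receptor that licenses antigen-presenting cells, stood at 0.701 and 0.856 TPM on days 2 and 4, at 0.0376 on day 8 and at 0.845 on day 18 (edgeR adjusted p = 0.56 for the straight line).

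Irf8, a transcription factor of myeloid cells, had 1, 7, 5, 6, 2, 21, 27, 54 and 79 counts on days 2 to 18 and a fitted log2 change of 4.92 ± 0.69 (edgeR adjusted p = 0.000248).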
